A study of Mus musculus with 2 samples.

Results

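Imprinted genes are read mainly from the copy inherited from 1 parent. The genes described are H19, Igf2, Dlk1, Meg3, Peg3, Mest, Plagl1, Cdkn1c, Grb10 and Igf2r, imprinted genes of fetal growth, which were taken by symbol, and all 10 were found among the 32285 genes in the tables of both libraries. Each library came from 1 liver, dissociated and measured by droplet-based 3′ single-cell RNA sequencing (10x Chromium, v3 chemistry). The first was labelled P180 (postnatal, in days after birth) and the second E18.5 (embryonic, in days after conception). Both livers came from mice in which Hhex, a homeobox gene needed to form the liver, had been knocked out, and both hosts had been given tetraploid (4N) embryonic stem cells with the red fluorescent protein tdTomato as blastocysts. There was no diploid, uninjected or Hhex-intact liver, no strain, sex or clone of stem cell was given, and the tables hold 0 tdTomato features, so host and donor cells were not told apart. Per the labels, the question was which types of cell were present.

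Sequencing gave 90128038 UMIs (unique molecular identifiers, each standing for 1 captured transcript) over 9771 barcodes labelled P180, and 37709972 UMIs over 9871 barcodes labelled E18.5. After filters, 8847 cells labelled P180 and 4543 labelled E18.5 were kept, with medians of 5905 and 4726 UMIs. The median mitochondrial share over all barcodes was 0.655% in the library labelled P180 and 16.7% in that labelled E18.5. The libraries shared 28 barcodes, 11 of them among the kept cells. Markers of stage went against the labels. Lin28b, an RNA-binding protein of fetal blood progenitors, had 9.39 CPM (a gene's UMIs over all UMIs, scaled to a fixed total) labelled P180 and 0.104 CPM labelled E18.5. The embryonic globin Hbb-y had 106 UMIs labelled P180 and 0 labelled E18.5, while the plasma cell gene Jchain had 0.0609 CPM labelled P180 and 2111 CPM labelled E18.5. Libraries are therefore named by their labels throughout, and no direction given here is one of age. Xist, which is expressed from an inactive X chromosome and so marks female cells, had 0.0974 CPM labelled P180 and 1291 CPM labelled E18.5 (3885 of 4543 cells), so this difference and the label cannot be told apart. With 1 library per label there was no test between them. All intervals are exact 95% intervals that cover counting error only, not the spread between animals or cells.

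In the fetus and placenta, imprinted genes of this set act on growth in opposite directions. Igf2, a paternally expressed growth factor, acts through the insulin-like growth factor 1 receptor. Igf2r, maternally expressed in most mouse tissues, carries IGF2 protein to lysosomes, and Grb10, an adaptor, restrains the insulin and insulin-like growth factor 1 receptors. Cdkn1c, also maternally expressed, inhibits cyclin-dependent kinases. H19 and Meg3 are maternally expressed long non-coding RNAs beside the paternally expressed Igf2 and Dlk1, and the transmembrane protein encoded by Dlk1 resembles ligands of Notch. Peg3 and Plagl1 encode zinc-finger proteins and Mest an enzyme-like protein of the endoplasmic reticulum, and these are paternally expressed. Many of these genes are abundant in the fetal liver and low after weaning. The tables do not separate parental alleles.

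The genes lie on 6 chromosomes in the GENCODE vM21 annotation of the mouse genome mm10 (GRCm38). H19 (chr7:142575529-142578143) and Igf2 (chr7:142650766-142666816) lie 72.6 kb apart on the minus strand. On the plus strand, Dlk1 (chr12:109452823-109463336) and Meg3 (chr12:109541001-109571726) lie 77.7 kb apart. Chromosome 7 also holds Peg3 (chr7:6703892-6730431) and Cdkn1c (chr7:143458339-143461050), both on the minus strand. Mest (chr6:30723547-30748465) and Plagl1 (chr10:13060504-13131694) are on the plus strand, and Grb10 (chr11:11930508-12038683) and Igf2r (chr17:12682406-12769664) on the minus strand. Genes on the opposite strand overlap Mest (Copg2 and Gm44296), Igf2r (Airn), Igf2 (Igf2os) and Cdkn1c (Gm44732). No source used here says whether the counting used strand, so UMIs of these genes may be shared with their partners.

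RefSeq promoters (250 bases before to 50 after a transcript's start, GRCm38.p6) were matched for 8 of the 10 genes, at 15 starts. Those of the 4 matched genes with the largest ratio, or lower bound of one, between libraries in mesenchymal-like cells are printed. CpG pairs are marked because imprinting is held by methylation of such pairs, but no source used here shows that these windows carry it. For each gene, the start with the most CpG pairs was taken. CpG pairs are in capitals.
Dlk1: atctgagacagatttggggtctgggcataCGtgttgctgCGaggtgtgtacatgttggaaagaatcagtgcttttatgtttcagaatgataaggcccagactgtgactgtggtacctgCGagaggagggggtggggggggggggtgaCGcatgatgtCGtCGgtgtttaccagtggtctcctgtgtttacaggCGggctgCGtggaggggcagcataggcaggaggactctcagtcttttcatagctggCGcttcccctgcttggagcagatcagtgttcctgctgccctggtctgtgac
Meg3: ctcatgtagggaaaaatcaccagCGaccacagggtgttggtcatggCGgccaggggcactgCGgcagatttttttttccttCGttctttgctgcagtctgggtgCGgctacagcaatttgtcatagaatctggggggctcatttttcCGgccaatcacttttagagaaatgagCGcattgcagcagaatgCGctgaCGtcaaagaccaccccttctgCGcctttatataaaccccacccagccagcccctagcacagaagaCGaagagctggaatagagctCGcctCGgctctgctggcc
Igf2: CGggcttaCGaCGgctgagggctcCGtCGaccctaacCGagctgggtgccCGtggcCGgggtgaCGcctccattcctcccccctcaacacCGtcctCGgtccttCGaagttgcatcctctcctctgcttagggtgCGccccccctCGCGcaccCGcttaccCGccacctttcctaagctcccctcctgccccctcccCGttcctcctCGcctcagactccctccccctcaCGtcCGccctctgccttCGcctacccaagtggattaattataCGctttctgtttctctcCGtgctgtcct
Mest: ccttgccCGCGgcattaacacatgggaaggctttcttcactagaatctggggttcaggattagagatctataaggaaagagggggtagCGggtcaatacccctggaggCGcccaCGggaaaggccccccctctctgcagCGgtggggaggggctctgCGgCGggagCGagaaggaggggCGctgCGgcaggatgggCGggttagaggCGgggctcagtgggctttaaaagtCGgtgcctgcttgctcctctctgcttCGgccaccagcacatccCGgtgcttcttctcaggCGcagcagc
These windows are, in order, chr12:109452573-109452872 (plus strand), chr12:109540746-109541045 (plus), chr7:142658755-142659054 (minus) and chr6:30737800-30738099 (plus). They held 9 CpG pairs in Dlk1, 13 in Meg3, 24 in Igf2 and 17 in Mest, against a median of 7 over 32851 mouse promoters. That median is over promoters not picked for CpG pairs. The starts not printed held 2, 14 and 7 pairs in Igf2, 1 in Meg3, and 8 and 17 in Mest. The most were the 45 of the first Grb10 start. On both strands, TATAAA was found in 1 of the 15 windows, that of the first Meg3 start, and in 13.6% of all promoters. The GC box GGGCGG was in 8 of 15 windows, overlapping Mest windows counted separately, and in 35.7% of all promoters. These are matches of letters and not sites of binding, and the libraries hold no methylation data.

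Most UMIs of the set labelled P180 came from 2 small classes. Mesenchymal-like cells (50 cells, named from 7 markers such as Dcn and Col3a1) and endothelial-like cells (110 cells) together held 96.2% of Mest UMIs in the kept cells, 90.7% of Meg3, 89.8% of Dlk1, 89.1% of Igf2 and 79.8% of H19. For Peg3 and Cdkn1c their shares were 44.2% and 53.2%, and for Igf2r 11.4%. The 141 unnamed cells labelled P180 held another 44.4% of Peg3 and 12.8% of H19 UMIs. Summed over the 10 genes, the level labelled P180 was 8468 CPM in mesenchymal-like and 2774 CPM in endothelial-like cells, 234 CPM in the unnamed cells, and at most 52.5 CPM in the other 5 named classes of at least 50 cells. In the library labelled E18.5, endothelial-like cells (1016 cells) had the highest sum with 591 CPM, followed by mesenchymal-like cells (93 cells) with 436 CPM and bile duct cells (cholangiocyte-like, 166 cells) with 265 CPM. The other 8 classes labelled E18.5 held at most 76.0 CPM. Hepatocyte-like cells formed no class in either library.

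**Figure D1:**
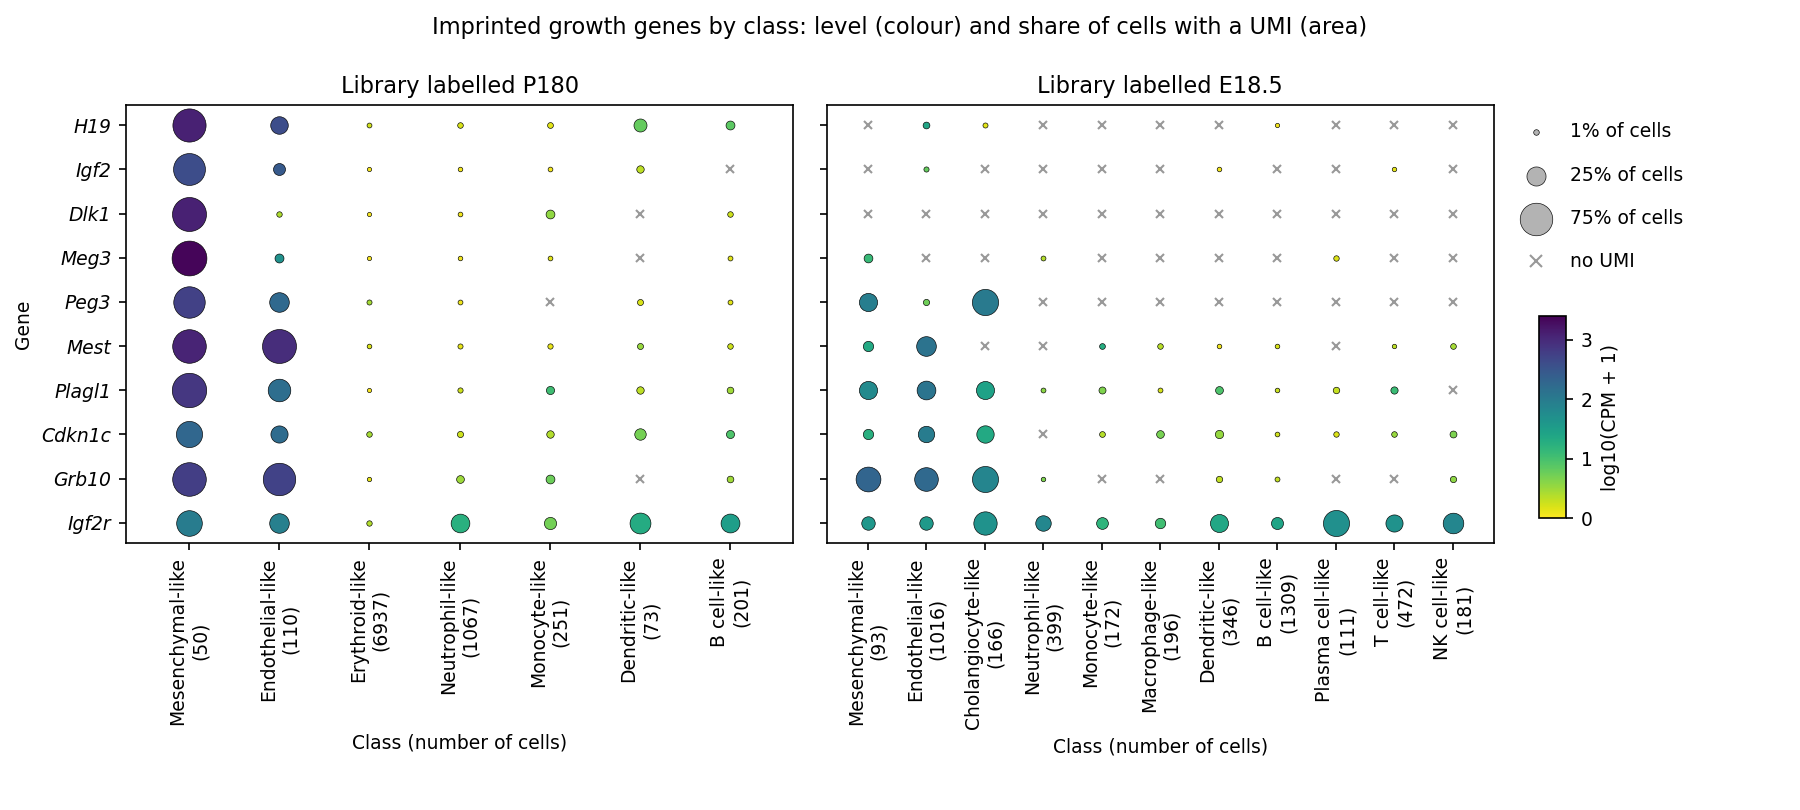
Level of each gene (colour, log10 of CPM + 1) and share of cells with at least 1 UMI (area) in each class of at least 50 cells, with the number of cells under each class, labelled P180 on the left and labelled E18.5 on the right; crosses mark genes with no UMI in the class. All 10 genes are dark in mesenchymal-like cells labelled P180, Igf2r alone is spread over the blood cell classes, and Dlk1 has no UMI in any class labelled E18.5.

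In mesenchymal-like cells, both genes of the chromosome 12 pair were far higher labelled P180. Dlk1 had 1240 CPM labelled P180 (interval 1138 to 1349; 542 UMIs in 41 of 50 cells) and 0 UMIs in 93 cells labelled E18.5, where 3 counts would be 7.19 CPM. It was at least 172-fold higher labelled P180 (3 counts over the class as the floor), and all 4543 kept cells labelled E18.5 held 0 Dlk1 UMIs. Its neighbour Meg3 had 2274 CPM labelled P180 (2135 to 2420; 43 of 50 cells) and 12 CPM labelled E18.5 (3.89 to 28; 5 UMIs in 4 of 93 cells), a log2 ratio of 7.57 (6.34 to 9.19). The bound of Dlk1 does not place it above or below the genes that follow. Meg3 was also among the 10 leading genes of the P180 cluster, so its level in that class helped to define it. When the cells were clustered without the 10 genes, 44 mesenchymal-like cells labelled P180 were found and the log2 ratio of Meg3 was 7.60.

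The chromosome 7 pair was higher labelled P180 as well. H19 had 1229 CPM in mesenchymal-like cells labelled P180 (1127 to 1337; 537 UMIs in 39 of 50 cells) and 0 UMIs in those labelled E18.5, at least 171-fold higher labelled P180. Igf2 had 407 CPM labelled P180 (350 to 472; 36 of 50 cells) and 0 UMIs labelled E18.5, at least 56.6-fold higher. For Dlk1, H19 and Igf2 alike, 0 of 93 cells labelled E18.5 allows a share of up to 3.23% of cells with a UMI by the limit of 3 counts, and up to 3.89% by the exact interval, at a median of 4228 UMIs per cell. As a measure of free RNA, neutrophil-like cells labelled P180, with a median of 16437 UMIs against 9501 in mesenchymal-like cells, carried H19 in 1.03%, Igf2 in 0.281%, Dlk1 in 0.375% and Meg3 in 0.281% of cells. Among the other blood cell classes of at least 50 cells labelled P180, the highest shares were 11% for H19 and 2.74% for Igf2 in dendritic-like cells (median 23390 UMIs). They were 4.38% for Dlk1 in monocyte-like cells (median 25495 UMIs) and 0.498% for Meg3 in B cell-like cells (median 5991 UMIs). The shares in mesenchymal-like cells labelled P180 were 78%, 72%, 82% and 86% for H19, Igf2, Dlk1 and Meg3. After each cell was thinned to 1000 UMIs, which left 45 mesenchymal-like cells labelled P180, these shares were 48.9%, 31.1%, 55.6% and 77.8% in mesenchymal-like cells and at most 0.505% in any of the blood cell classes of at least 50 cells (H19 in B cell-like cells).

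Among the other paternally expressed genes, Mest had 1144 CPM in mesenchymal-like cells labelled P180 (1046 to 1249; 40 of 50 cells) and 21.6 CPM labelled E18.5 (9.87 to 41.0; 6 of 93 cells), a log2 ratio of 5.73. Plagl1 had 737 CPM labelled P180 (42 cells) and 59.9 CPM labelled E18.5 (21 cells), a log2 ratio of 3.62 (3.03 to 4.27). Peg3 had 551 CPM labelled P180 (35 cells) and 88.7 CPM labelled E18.5 (21 cells), a log2 ratio of 2.64 (2.13 to 3.18). The genes that restrain growth were higher as well. Cdkn1c had 190 CPM labelled P180 (24 cells) and 16.8 CPM labelled E18.5 (6 cells), a log2 ratio of 3.50 (2.39 to 4.86). Grb10 had 599 CPM labelled P180 (40 cells) and 199 CPM labelled E18.5 (40 of 93 cells), a log2 ratio of 1.59 (1.23 to 1.97). Igf2r stayed under 50 UMIs in both libraries, with 96.1 CPM labelled P180 (42 UMIs) and 38.4 CPM labelled E18.5 (16 UMIs).

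Thus 9 of the 10 genes met the minimum of 50 UMIs in mesenchymal-like cells, and 9 were at least 2-fold higher labelled P180 and 0 lower. Of all 2293 genes that met it, the share past 2-fold was 23.6% upwards and 18.7% downwards. Since 8 of the 9 met the minimum through the library labelled P180 alone, they had to be higher there to be counted, and nothing is read from the count itself. The class is small and deeper labelled P180, with medians of 9501 UMIs per cell and 4228 labelled E18.5. All 15 mesenchymal markers had UMIs in both libraries, at summed levels of 17841 CPM labelled P180 and 19527 CPM labelled E18.5. Markers of hepatocytes summed to 48.1 CPM labelled P180 and 374 CPM labelled E18.5, and haemoglobins to 24170 CPM labelled P180 and 8293 CPM labelled E18.5. Cells with a hepatocyte marker UMI numbered 14 of 50 labelled P180 and 65 of 93 labelled E18.5, and 9 of 9 measured genes stayed at least 2-fold higher without them. The same limit holds for that count, so nothing is read from it either.

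**Figure D2:**
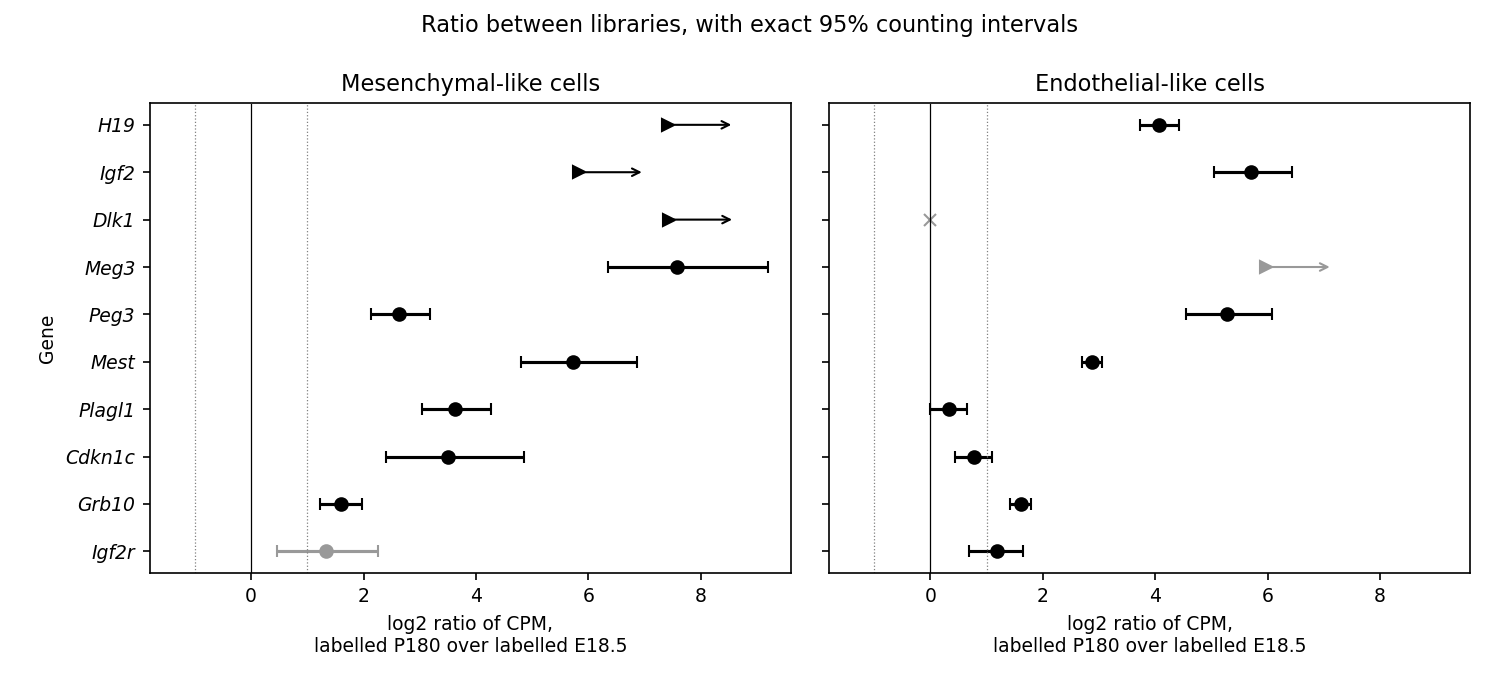
Ratio of CPM between libraries on a log2 axis, labelled P180 over labelled E18.5, for mesenchymal-like cells on the left and endothelial-like cells on the right, with exact 95% counting intervals; triangles with arrows are lower bounds where the library labelled E18.5 held 0 UMIs, grey marks genes under 50 UMIs in both libraries, the cross marks a gene with no ratio, and dotted lines mark 2-fold. Every ratio in mesenchymal-like cells lies right of the upper 2-fold line, while Plagl1 and Cdkn1c in endothelial-like cells lie between the lines.

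In endothelial-like cells, 8 of the 10 genes met the minimum. Of these, 6 were at least 2-fold higher labelled P180 and 0 lower, over a background of 4.9% higher and 10.1% lower among 8227 genes. Igf2 and Peg3 met it through the library labelled P180 alone, where fewer UMIs were summed (624111 labelled P180 and 3935118 labelled E18.5), so they had to be higher to be counted. Haemoglobins summed to 43561 CPM labelled P180 and 2706 CPM labelled E18.5 in this class, neutrophil markers to 905 CPM labelled P180 and 97.3 CPM labelled E18.5, and hepatocyte markers to 120 CPM labelled P180 and 315 CPM labelled E18.5. Their part in the ratios was not tested. The smallest ratios were those of Grb10, Igf2r, Cdkn1c and Plagl1. Grb10 had 540 CPM labelled P180 (484 to 601; 82 of 110 cells) and 178 CPM labelled E18.5 (165 to 191; 396 of 1016 cells), a log2 ratio of 1.60. Igf2r had 83.3 CPM labelled P180 (62.2 to 109) and 36.8 CPM labelled E18.5 (31.1 to 43.4), a log2 ratio of 1.18 (0.69 to 1.64). Cdkn1c, with 162 CPM labelled P180 and 95 CPM labelled E18.5, had a log2 ratio of 0.77 (0.44 to 1.09), and 1 cell held 32.7% of its UMIs labelled P180, without which the log2 ratio was 0.29. Plagl1 had 152 CPM labelled P180 (123 to 186) and 121 CPM labelled E18.5 (111 to 133), a log2 ratio of 0.33 whose interval, −0.01 to 0.65, takes in 0. The chromosome 12 pair had few UMIs here. Meg3 had 30 UMIs in 5 of 110 cells labelled P180 and 0 in 1016 cells labelled E18.5, and Dlk1 had 1 UMI labelled P180 and 0 labelled E18.5.

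The endothelial levels of the chromosome 7 pair rested on few cells. H19 had 255 UMIs in 23 of 110 cells labelled P180, of which 99, 76 and 35 lay in 3 cells, 82.4% in all. Igf2 had 174 UMIs in 10 cells labelled P180, and a single cell held 118 of them, or 67.8%. Without that cell the log2 ratio of Igf2 was 4.56 in place of 5.71. With no doublets left out, it was 4.44 for Igf2 and 3.39 for H19 in place of 4.07. In contrast, the 576 Mest UMIs lay in 90 of 110 cells labelled P180 and the top 3 cells held 20.5% of them, and for Grb10 the top 3 of 82 cells held 16.9%. Mesenchymal-like cells labelled P180 showed no such concentration, with 23.6% of H19 and 29.8% of Igf2 UMIs in their top 3 cells. The 3 endothelial-like cells with most H19 labelled P180 held 118, 18 and 25 Igf2 UMIs, and 30, 38 and 104 UMIs of Mecom, a transcription factor gene. None of them held a UMI of a mesenchymal or hepatocyte marker, and they held 31 to 53 haemoglobin UMIs among 8871 to 15742 in all.

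**Figure D3:**
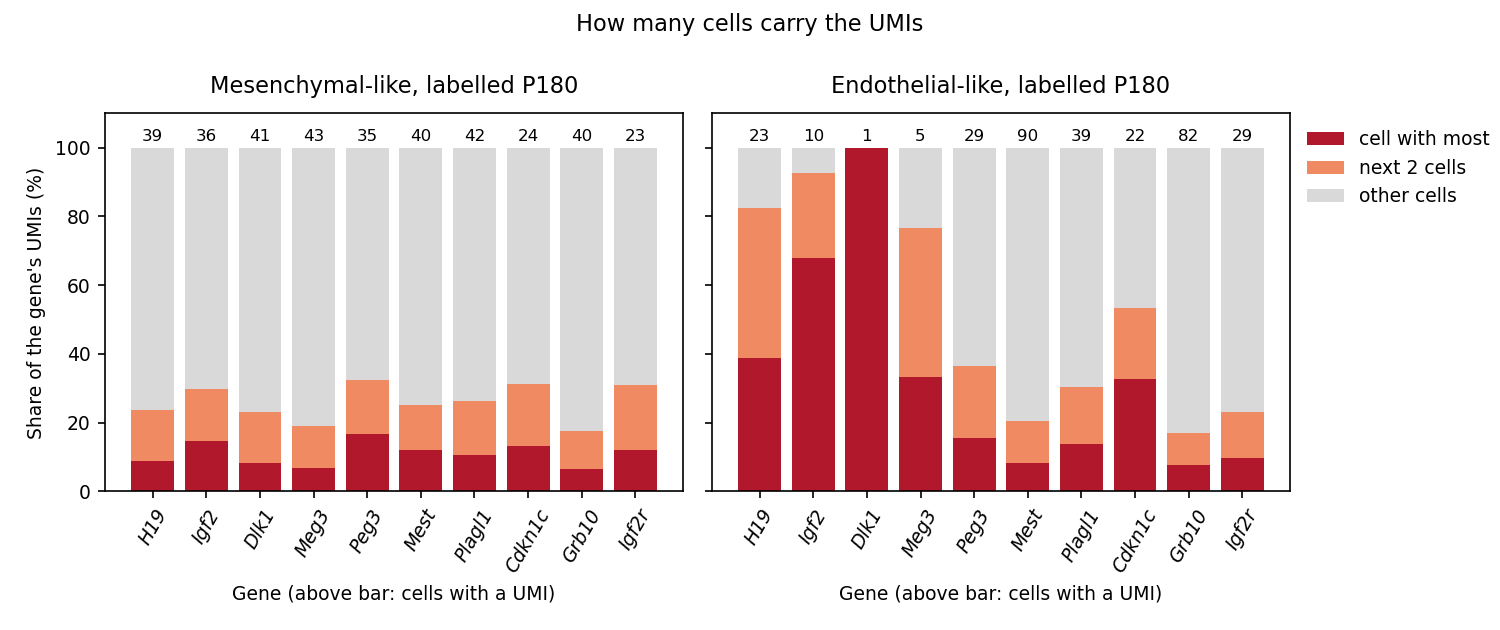
Share of each gene's UMIs held by the cell with most (dark red), the next 2 cells (orange) and all other cells (grey) in the library labelled P180, for mesenchymal-like cells on the left and endothelial-like cells on the right, with the number of cells that carry the gene above each bar. In endothelial-like cells the top 3 cells hold 82.4% of H19 and 92.5% of Igf2 UMIs, against 23.6% and 29.8% in mesenchymal-like cells.

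Clusters of endothelial-like cells labelled E18.5 differed in these genes. All 96 H19 UMIs (21 cells) and all 21 Igf2 UMIs (7 cells) of the class lay in the cluster of 331 cells led by Ldb2 and Mecom, at 65.7 CPM (53.2 to 80.2) and 14.4 CPM (8.90 to 22). None was found in the 470 cells led by Ptprb and Stab2, Stab2 being a scavenger receptor of sinusoids, or in the 215 cells led by Rspo3, a secreted enhancer of Wnt signalling. Plagl1 had 233 CPM in the Ldb2-led cluster, 82 CPM in the Rspo3-led and 30.8 CPM in the Stab2-bearing cluster, and Cdkn1c had 193, 32.3 and 41.8 CPM in the same order. Grb10 was level across them, at 174, 184 and 176 CPM with overlapping intervals. The members were among the genes clustered, so these levels are a description. In the library labelled P180 the class was 1 cluster, led by Fabp4 and Ptprb. Stab2 was found in 60.9% of its 23 cells with H19 and 80.5% of the 87 without. For Rspo3 these shares were 34.8% and 32.2%, and for Mecom 34.8% and 31.0%. The cluster was thus mixed and no counterpart of the Ldb2-led cluster alone, so its levels beside that cluster are a description. It was higher than the Ldb2-led cluster in H19 (409 CPM), Igf2 (279 CPM), Peg3 (176 against 8.21 CPM) and Mest (923 against 154 CPM). It was not higher in Plagl1 (152 against 233 CPM) or Cdkn1c (162 against 193 CPM).

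**Figure D4:**
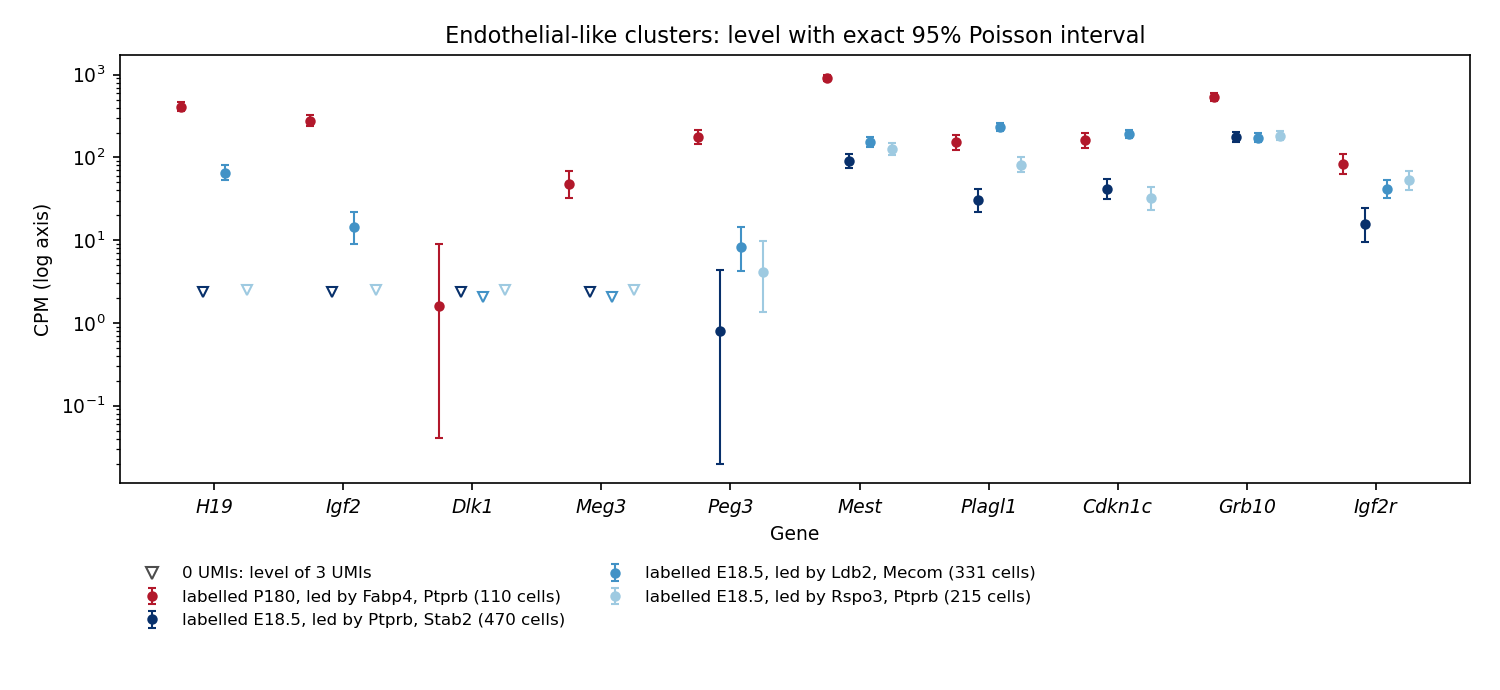
Level of each gene in CPM (log axis) with exact 95% Poisson intervals in the endothelial-like cluster labelled P180 (red) and the 3 clusters labelled E18.5 (blues); open triangles stand at the level of 3 UMIs where the count was 0. H19 and Igf2 are at 0 in 2 of the 3 clusters labelled E18.5 and at 65.7 and 14.4 CPM in the one led by Ldb2 and Mecom.

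Most vessel genes were at like levels in endothelial-like cells with and without H19. Of the 25 genes that led the 3 clusters labelled E18.5, 22 were within 2-fold in the library labelled P180, and Mecom, Nrg1 and Ntn4 were higher in the 23 cells with H19. Mecom had 1356 CPM in those cells, against 180 CPM in the 87 without. It was found in 34.8% and 31.0% of them, so its difference rests on the same few cells. Nrg1 had 210 against 28.1 CPM (17.4% and 6.90% of cells), and Ntn4 437 against 78 CPM (56.5% and 29.9%). The 3 cells with most H19 held 9, 11 and 6 Nrg1 UMIs and 3, 13 and 40 Ntn4 UMIs, so few cells weigh on these differences as well. In the library labelled E18.5, all 21 cells with H19 lay in the Ldb2-led cluster, so they are set against the other 310 cells of that cluster. There 20 of the 25 genes were within 2-fold, with Mecom at 1859 CPM in cells with H19 and 2184 CPM in cells without it, and Ntn4, a laminin-related netrin, at 1337 and 1395 CPM. Vwf, a clotting factor carrier, had 598 CPM in cells with H19 and 318 CPM in cells without it in the library labelled P180, but 218 CPM in cells with H19 and 569 CPM in cells without it in the Ldb2-led cluster labelled E18.5. Cells with H19 were deeper, with medians of 4454 against 3242 UMIs labelled P180, and 4838 against 3736 UMIs in the Ldb2-led cluster. The 21 cells labelled E18.5 also held more haemoglobin, at 2.95% of UMIs against 0.166%, and 465 against 57.5 CPM of mesenchymal markers, found in 4 of 21 and 53 of 310 cells. The part of these in the result was not tested. Without endothelial-like cells that held a mesenchymal marker UMI, the log2 ratio of H19 between libraries was 4.63 in place of 4.07.

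Many of the genes were found in the same cells. A mesenchymal-like cell labelled P180 held UMIs of a median of 8 of the 10 genes, 32 of 50 cells held at least 8, and 11 held all 10. The median was 1 in mesenchymal-like cells labelled E18.5, where no cell held more than 5. In endothelial-like cells the medians were 3 labelled P180 and 1 labelled E18.5, with at least 5 genes in 21 of 110 and 20 of 1016 cells. With cells thinned to 1000 UMIs, the medians were 4 labelled P180 and 0 labelled E18.5 in mesenchymal-like cells, and 1 labelled P180 and 0 labelled E18.5 in endothelial-like cells. Neutrophil-like cells held none of the genes in 69.9% of cells labelled P180 and 83% of those labelled E18.5.

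**Figure D5:**
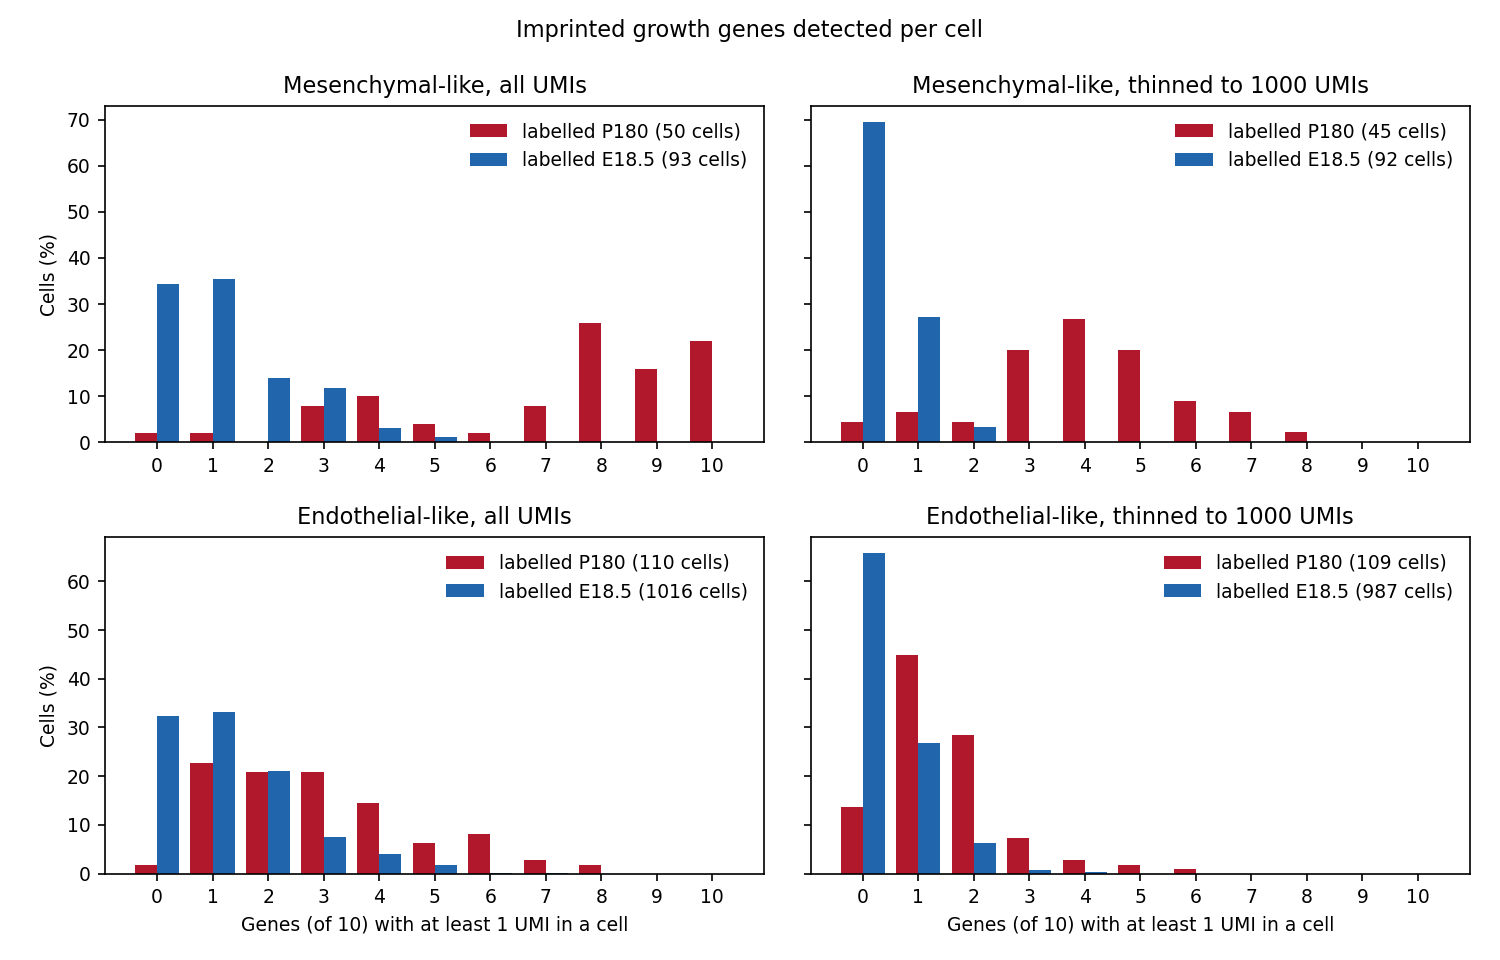
Percent of cells by the number of the 10 genes with at least 1 UMI, for mesenchymal-like cells above and endothelial-like cells below, with all UMIs on the left and each cell thinned to 1000 UMIs on the right; red is labelled P180 and blue labelled E18.5. With all UMIs, mesenchymal-like cells labelled P180 peak at 8 genes and those labelled E18.5 at 1.

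Pairs of genes were also set against the number of shared cells that their separate shares would give. In mesenchymal-like cells labelled P180 all 45 pairs were found together more often than that product, by a median factor of 1.10 (1.02 to 1.27 over pairs). Depth moved with this, since cells with H19 held a median of 11688 UMIs and those without it 1244. In thinned cells, 27 of the 34 pairs with a product of at least 3 cells were above it, with a median factor of 1.09. H19 and Mest shared 14 thinned cells where the product was 9.78, and Dlk1 and Meg3 shared 22 where it was 19.4. H19 and Igf2 shared 7 thinned cells and the product was 6.84. In endothelial-like cells labelled P180, H19 and Igf2 shared 7 cells where the product was 2.09, and 3 thinned cells where it was 0.477. Across the pairs of that class, the median factor was 1.22 with all UMIs (25 of 26 pairs above) and 0.92 in thinned cells (4 of 9 above). These are factors over cells of 1 library and carry no test.

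Outside vessels and stroma, Peg3, Grb10, Igf2r, Plagl1 and Cdkn1c were found in cholangiocyte-like cells labelled E18.5. Cholangiocyte markers summed to 21821 CPM there and hepatocyte markers to 7860 CPM, found in 164 of 166 cells, against 315 CPM of hepatocyte markers in endothelial-like cells of that library. Peg3 had 100 CPM there (88.2 to 114; 80 of 166 cells), Grb10 71.1 CPM (79 cells), Igf2r 45.5 CPM (63 cells), Plagl1 26.5 CPM (37 cells) and Cdkn1c 21.1 CPM (34 cells), while H19 had 1 UMI and Igf2, Dlk1, Meg3 and Mest had 0. A median cell of this class held 10526 UMIs. Neutrophil-like cells labelled E18.5 held 0 Peg3 UMIs at a median of 2866 UMIs, and in thinned cholangiocyte-like cells the share was 12.2% for Peg3, 7.32% for Grb10, 3.05% for Plagl1, 1.83% for Igf2r and 0% for Cdkn1c. No cholangiocyte-like class was found in the library labelled P180. In erythroid-like cells, 6937 of the kept cells labelled P180, no gene passed 1.91 CPM or 0.980% of cells.

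Igf2r was spread over blood cells. Its level labelled P180 was highest in mesenchymal-like (96.1 CPM) and endothelial-like cells (83.3 CPM), whose intervals overlap, followed by B cell-like (31.5 CPM), dendritic-like (20.2 CPM), neutrophil-like (16.3 CPM), monocyte-like (4.29 CPM) and erythroid-like cells (1.48 CPM). In the library labelled E18.5, NK cell-like and neutrophil-like cells stood highest, at 67.6 and 66.8 CPM with overlapping intervals, and macrophage-like cells lowest at 10.1 CPM. In neutrophil-like cells Igf2r was lower labelled P180, with 16.3 CPM (14.7 to 18.2) against 66.8 CPM (53.8 to 82) labelled E18.5, a log2 ratio of −2.03 (−2.37 to −1.68). Of 9611 genes measured there, 35.8% were past 2-fold upwards and 18.1% downwards, and scaling by the median of ratios gave −1.36. The class held unlike cells in the 2 libraries. Labelled P180, clusters of 437, 420 and 150 cells had Ngp and Camp among their markers, and 60 cells were led by Retnlg and Cxcl2. Labelled E18.5, 379 of 399 cells lay in a cluster with Retnlg, Cxcr2 and Csf3r but not Ngp or Camp among its markers. The part of this in the ratio was not tested. B cell-like cells held 31.5 CPM labelled P180 and 25 CPM labelled E18.5, and dendritic-like cells 20.2 and 23.1 CPM, with intervals of the ratio that take in 0 on the log2 scale. Plagl1 in monocyte-like cells had 10.3 CPM labelled P180 and 3.48 CPM labelled E18.5 (72 and 5 UMIs), a log2 ratio of 1.57 (0.28 to 3.23), and 9 cells labelled P180 held the 72 UMIs. The name of the monocyte-like cells labelled P180 rests on 3 markers (Ly6c2, F13a1 and Ms4a6c), the fewest that allow one, and 2 neutrophil markers were also among their leading genes. Without cells that held a hepatocyte marker UMI the log2 ratio of Plagl1 was −0.02. These were the only measured genes of the set past 2-fold in the 4 blood cell classes compared, where 23.4% of B cell-like, 1.93% of dendritic-like and 29.7% of monocyte-like genes were higher and 18.2%, 8.54% and 9.1% were lower.

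Over the 18 combinations of class and library with at least 50 cells, levels of some of the genes ran together. By Pearson correlation of log2(CPM + 10) among 12441 genes with at least 200 UMIs, the gene most like H19 was Igf2 (r = 0.99), followed by Mest (0.95) and Igf2bp2 (0.91), which encodes a binder of Igf2 mRNA. Dlk1 was most like the collagen gene Col25a1 (0.97), Meg3 (0.95) and the vessel growth factor gene Vegfd (0.94). Meg3 was most like the same genes, Col25a1 (0.97), Vegfd (0.95) and Dlk1 (0.95). Grb10 was most like Col4a1 (0.99), a basement membrane collagen. Igf2r was most like Airn (0.87), which overlaps it on the other strand and had 1783 UMIs labelled P180 and 3221 labelled E18.5 over all barcodes. The points share 2 libraries, and 1 of them, mesenchymal-like cells labelled P180, is high for most of the set.

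Other genes of the pathways did not all go the same way. Over all genes measured, 4.9% were at least 2-fold higher and 10.1% lower in endothelial-like cells, and 23.6% higher and 18.7% lower in mesenchymal-like cells. Of 22 genes of the insulin-like growth factor axis, Igf2, Igf2r and Grb10 among them, 11 were measured in endothelial-like cells, with 5 higher labelled P180, 2 lower and a median log2 ratio of −0.17 against 0.02 over all genes. The 5 are Igf2, Igf2r, Grb10, Igf1 and Igf2bp3. Igf1, the circulating growth factor, had 59 UMIs labelled P180 and 6 labelled E18.5, a log2 ratio of 5.95 (4.75 to 7.46). Like Igf2, Igf1 met the minimum through the library labelled P180 alone, so both had to be higher there to be counted. In mesenchymal-like cells 8 were measured, with 2 higher, Igf2 and Grb10 themselves, and 3 lower, so none of the other genes of the axis was higher. Of the lower genes, Htra1, a protease, was lower labelled P180 (6 and 77 UMIs, log2 ratio −3.75). Among 23 other paternally expressed imprinted genes, 7 were measured in endothelial-like cells, with 2 higher and 2 lower, and 3 in mesenchymal-like cells, with 1 higher and 0 lower. Zrsr1 had 3 UMIs labelled P180 and 96 labelled E18.5 in endothelial-like cells, a log2 ratio of −2.34. Of 32 other genes listed as maternally expressed, 14 were measured in endothelial-like cells, with 1 higher and 1 lower. In mesenchymal-like cells 5 were measured, with 2 higher and 1 lower. The list also held Xist, which marks female cells and had 0.0974 CPM labelled P180 and 1291 CPM labelled E18.5 over all kept cells. Nothing about maternally expressed genes is therefore read from its counts of lower genes. Rian, a non-coding RNA gene of the Dlk1 and Meg3 domain, had 126 UMIs labelled P180 and 1 labelled E18.5 in mesenchymal-like cells, a log2 ratio of 6.91 (4.41 to 12.2). Rian also met the minimum through the library labelled P180 alone. Ppp1r9a, which encodes an actin-binding protein, had 311 UMIs labelled P180 and 119 labelled E18.5 in endothelial-like cells, a log2 ratio of 4.04.

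Those genes of cell division that were measured were also mostly higher labelled P180 in these classes. Of 24 proliferation genes, 8 were measured in endothelial-like cells, with 6 higher labelled P180 and 0 lower, and 5 in mesenchymal-like cells, with 5 higher and 0 lower, over the same backgrounds. Of the 5 in mesenchymal-like cells, 3 had 0 UMIs labelled E18.5. A gene that met the minimum through the library labelled P180 alone was counted because it was high there, so nothing is read from the counts themselves. In blood cells, where few of the imprinted genes were measured, 24 of 24 were higher in B cell-like, 23 of 24 in monocyte-like, 23 of 24 in neutrophil-like and 1 of 24 in dendritic-like cells. Over all genes measured, 23.4%, 29.7%, 35.8% and 1.93% were higher in the same order. Of 201 B cell-like cells labelled P180, 122 lay in a cluster with the markers Vpreb1 and Igll1, which marked no B cell-like cluster labelled E18.5. The neutrophil-like classes also held unlike cells, as given above. Mki67, a marker of cycling cells, had 114 UMIs labelled P180 and 3 labelled E18.5 in endothelial-like cells, a log2 ratio of 7.90 (6.32 to 10.2). Cdk1, the mitotic kinase, had 88 UMIs labelled P180 and 1 labelled E18.5 in mesenchymal-like cells, a log2 ratio of 6.39 (3.88 to 11.7). Gpc3, a growth-restraining surface proteoglycan counted among fetal genes, had 165 UMIs labelled P180 and 23 labelled E18.5 in mesenchymal-like cells, a log2 ratio of 2.78 (2.14 to 3.47). Their part in the levels of the imprinted genes was not tested.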

How the data were processed

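The authors deposited unnormalised UMI counts for each gene in each barcode, from Cell Ranger 7.1.0 per the file headers. The submitters' processing notes also name fastp, Trimmomatic, Seurat, edgeR and mm10, without a role. How reads were removed, cells called and strand used was not given in the sources at hand.

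Barcodes with at least 200 genes and 500 UMIs and under 25% mitochondrial UMIs were kept, and those with the highest Scrublet scores (scanpy 1.11.5) left out, 0.8% per 1000 barcodes. Each library was clustered alone (2000 variable genes, 30 components, 15 neighbours, Leiden resolution 1, leidenalg 0.10.2). A cluster was named from at least 3 markers among its 50 leading genes, and left unnamed where another class led its top 10. Levels are a gene's summed UMIs over those of the class, scaled (CPM), with exact Poisson, Clopper-Pearson or conditional intervals. Classes were compared where each library had at least 50 cells; called means at least 2-fold with at least 50 UMIs in a library. The steps were tested on simulated data, with each cell drawn from the summed counts of a class already named by this rule. Simulated cells of a class differed only by depth and sampling, so this was an easier case than the data. There 85.7% of 700 simulated cells labelled P180 regained their class name and 0% took another's; those left unnamed were drawn from the monocyte-like class. The test first asked for over 90% of names, and the rule was changed to purity and wrong names after this result. The 10 genes and the lists were chosen with earlier results of these data known. Text names all 10 genes, and at most 3 per list by size of ratio. Vessel genes and Xist were named after their values were seen.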

Additional observations from a re-analysis of the deposited data

How the results depend on the processing

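In mesenchymal-like cells every measured gene stayed at least 2-fold higher labelled P180 under all settings run, 7 of 7 with at least 200 UMIs and 10 of 10 with at least 20. No gene of the set passed 83 UMIs labelled E18.5 in this class, so all 7 met the minimum of 200 through the library labelled P180 alone. They had to be higher there to be counted, and nothing is read from these counts. In endothelial-like cells the count was 5 to 7 in place of 6, except with at least 200 UMIs, where it was 3 of 5. In the 4 blood cell classes the count higher labelled P180 was 1 (Plagl1 in monocyte-like cells). It was 0 with a mitochondrial limit of 10% or none, with no doublets left out or Scrublet's own threshold, at resolution 0.5, with at least 200 UMIs, without the cell with most UMIs of the gene, and without cells with a hepatocyte marker UMI, where the log2 ratio of Plagl1 was −0.02. It was 2 with at least 20 UMIs and 8 with no minimum. The count lower there was 1, and was 4 with at least 20 UMIs and 6 with no minimum. Of the log2 ratios of single genes, 271 moved by less than their counting error, 26 moved by more and 1 turned. Without cells with a hepatocyte marker UMI, which leaves 28 mesenchymal-like cells labelled E18.5 and so raises the floor, the bounds were 5.48 (Dlk1), 5.34 (H19) and 3.63 (Igf2) on the log2 scale. The cause of the other shifts was not tested. The alternatives that leave out cells by their markers, the clustering without the 10 genes, and the comparison of cells with H19 within the Ldb2-led cluster, where Mecom was lower in place of higher than in all other endothelial-like cells, were chosen after seeing the data. No paired analysis was possible because there is 1 library per label. Of the classes compared, depth limits mesenchymal-like cells most, where 3 counts are 6.86 CPM labelled P180 and 7.19 CPM labelled E18.5.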

Other observations

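A cluster of 57 cells labelled P180, led by Spp1 and Clu, stayed unnamed because hepatocyte and cholangiocyte markers tied among its leading genes. Its imprinted gene UMIs lay almost wholly in the 13 cells with a hepatocyte marker UMI, which had a median of 16627 UMIs against 2596 in the other 44. In these 13 cells Peg3 had 1454 CPM (1304 to 1615; 11 cells), H19 527 CPM (438 to 628; 9 cells), Meg3 388 CPM (8 cells), Grb10 291 CPM (10 cells) and Igf2 131 CPM (5 cells). Mest, which was high in stroma and vessels of the same library, had 1 UMI. The 44 cells without a hepatocyte marker held 4 UMIs of the 10 genes in all, from Cdkn1c, Grb10 and Igf2r. The split was chosen after seeing the data, and hepatocyte markers made up 1.32% of the UMIs of the 13 cells.

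A second unnamed cluster labelled P180, 84 cells led by Hspe1 and Car1 with a median of 46605 UMIs, held Grb10 at 42.5 CPM (36.4 to 49.3; 47 cells) and Igf2r at 38.1 CPM (65 cells), with at most 2.43 CPM of the other 8 genes. In monocyte-like cells labelled E18.5, 26 Mest UMIs lay in 2 of 172 cells. In dendritic-like cells labelled E18.5, 42 Plagl1 UMIs lay in 11 of 346 cells.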
